A study of Mus musculus with 8 samples.

Results

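The genes described here are those of dopamine, serotonin and histamine neurons in the mouse hypothalamus, chosen by name. The rule that picked them used no measured value, although it was set with earlier results of these data known. All probes whose platform gene symbol was Th, Ddc, Hdc, Slc6a3, Slc18a2, Chrna6, En1, En2, Drd1 or Drd2 were taken, which gave 11 probes for 10 genes among the 25697 probes of an Illumina bead array. Chrna6 had 2 probes and each other gene had 1. The arrays measured total RNA of the hypothalamus of 8 male mice killed at 13 weeks of age, all on a C57BL/6 background. In 4 mice, labelled Bgn_KO, the gene of biglycan was disrupted. Biglycan is a small proteoglycan of the extracellular matrix, and the allele is not named in the sources used here. The other 4 mice were labelled WT, and no treatment was named for either genotype. Liver taken from the same animals was not analysed here. The labels number the samples of each genotype 1 to 4, and the design counts 4 mice of each genotype.

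Dopamine is made from tyrosine by tyrosine hydroxylase (Th) and aromatic amino acid decarboxylase (Ddc), and Ddc also completes the synthesis of serotonin. Histamine is made from histidine by histidine decarboxylase (Hdc), which in the brain marks the neurons of the tuberomammillary nucleus in the posterior hypothalamus. The vesicular transporter Slc18a2 loads all of these amines into synaptic vesicles, whereas the plasma membrane transporter Slc6a3 takes dopamine back up. Dopamine neurons lie within the hypothalamus, in the arcuate and periventricular nuclei, where they restrain prolactin release, and in the ventral midbrain just behind it. Strong Slc6a3, the nicotinic receptor subunit Chrna6 and the homeobox genes En1 and En2 are known as features of the midbrain cells, while Drd1 and Drd2 are the receptors through which dopamine acts.

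The windows before the starts of 4 of these genes are shown because their transcripts differed in how they varied over the arrays: Slc6a3 and Th were highest on the same 4 arrays, and Slc18a2 and Hdc were not. Of the 10 genes, 8 had an entry among the RefSeq promoters of build GRCm38.p6, and Chrna6 and En2 had none. Each sequence is the 250 bases before the start given in that table, 5′ to 3′ on the strand of the gene. For Slc6a3 and Hdc this start lies inside the annotated span of the gene and not at its outer end. Capitals mark matches to the cyclic AMP response element TGACGTCA and to the GC box GGGCGG or its reverse complement.
Th, chr7:142899996-142900245, minus strand: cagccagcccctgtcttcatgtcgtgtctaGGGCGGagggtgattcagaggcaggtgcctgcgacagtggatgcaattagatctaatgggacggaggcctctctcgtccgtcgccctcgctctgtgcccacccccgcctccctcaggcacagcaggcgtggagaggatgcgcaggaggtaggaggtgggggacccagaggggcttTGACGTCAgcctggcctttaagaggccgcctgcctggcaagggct
Slc6a3, chr13:73536497-73536746, plus strand: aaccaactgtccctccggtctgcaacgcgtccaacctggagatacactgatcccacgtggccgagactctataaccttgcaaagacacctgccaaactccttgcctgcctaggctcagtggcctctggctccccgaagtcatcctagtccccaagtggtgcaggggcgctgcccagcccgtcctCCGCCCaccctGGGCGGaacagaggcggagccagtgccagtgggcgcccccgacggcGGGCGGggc
Slc18a2, chr19:59260628-59260877, plus strand: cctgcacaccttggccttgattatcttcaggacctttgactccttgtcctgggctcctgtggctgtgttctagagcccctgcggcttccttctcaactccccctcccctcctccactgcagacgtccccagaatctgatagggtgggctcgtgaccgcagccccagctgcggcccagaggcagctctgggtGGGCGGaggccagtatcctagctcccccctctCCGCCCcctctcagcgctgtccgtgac
Hdc, chr2:126618679-126618928, minus strand: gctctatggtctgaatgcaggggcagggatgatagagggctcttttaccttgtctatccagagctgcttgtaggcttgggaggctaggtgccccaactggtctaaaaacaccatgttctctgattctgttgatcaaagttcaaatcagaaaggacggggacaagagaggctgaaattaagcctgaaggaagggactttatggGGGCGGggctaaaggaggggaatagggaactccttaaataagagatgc
Both strands were searched for 4 motifs, which were the cyclic AMP response element, the GC box, the TATA box TATAAA and AAAGGTCA, the element bound by Nr4a2 and its relatives. The response element was found in Th, beginning 45 bases before the start, and 1.55% of the 32851 windows of the same length in the RefSeq table hold it. The GC box occurred once in Th, 3 times in Slc6a3, 2 times in Slc18a2 and once in Hdc, against 32.7% of all windows with at least 1. Neither the TATA box, present in 12.4% of windows, nor the Nr4a2 element, present in 1.34%, was found in any of the 4. These matches describe letters in the windows and were not tied to the array values.

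The array values come from the deposited signal, which was corrected for background, brought to a common distribution by quantile normalization and log2 transformed. A probe counted as detected on an array when its deposited detection p-value was under 0.05, and 14190 probes detected on at least 4 arrays were tested for a genotype difference. The median deposited signal lay between 180 and 225 on the 8 arrays, and 13820 to 14502 probes were detected. The number of arrays, 4 per genotype, limits the precision. All 11 member probes were tested, and 8 of them were detected on every array. Hypothalamic peptides were bright on every array, with Pmch at log2 levels of 14.4 to 14.9 and Hcrt at 12.8 to 13.4. Of the hypothalamic transcription factors, Nkx2-1 had log2 levels of 9.07 to 9.80, whereas Otp, Sim1 and Lhx6 were detected on no array. Of 17 genes listed for hypothalamic neurons, 11 were tested, 2 higher and 9 lower in Bgn_KO, with 0 past the limma adjusted threshold of 0.05 and a median log2 difference of -0.05. The Bgn probe was used to check the labels. Its log2 levels in the Bgn_KO group were 8.93, 8.998, 8.97 and 8.78, and in the WT group 8.85, 10.43, 10.12 and 9.51. On this probe WT replicate 1 therefore lay within the Bgn_KO range, against its label. Where the Bgn probe lies relative to the disrupted part of the gene is not known here. Among the probes with the smallest p-values, those of Erdr1 and Mrps27 set all WT arrays, WT replicate 1 included, apart from all Bgn_KO arrays. Their differences were 5.29 (SE 0.22, limma adjusted p = 1.009e-05) and -2.22 (SE 0.11, limma adjusted p = 3.325e-05). Whether the label is right was not tested. The Bgn difference was -0.81 on the log2 scale (SE 0.29, limma adjusted p = 0.389). Wherever a direction between genotypes is given below, it includes the library labelled WT replicate 1.

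The plasma membrane dopamine transporter Slc6a3 varied more than any other member. Its log2 levels were 7.64, 7.60, 7.76 and 10.99 on Bgn_KO arrays 1 to 4, and 7.92, 11.79, 10.59 and 10.95 on WT arrays 1 to 4. Bgn_KO replicate 4 and WT replicates 2, 3 and 4 were thus high and the other 4 arrays were low, so that the genotypes overlapped and each held both levels. The same split stood in the signal before any normalization, where the intensities were 350.0, 297.8, 313.6 and 2379 in the Bgn_KO group and 464.9, 3516, 1871 and 2237 in the WT group. From the lowest to the highest array the normalized level spanned 18.2-fold, and the SD over the 8 arrays exceeded that of 99.9% of tested probes. The probe was detected on all 8 arrays. In whole-tissue RNA, as measured here, fewer cells of a type and less RNA per cell cannot be told apart.

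The nicotinic receptor subunit Chrna6, which pairs with beta subunits on dopamine terminals, followed the same arrays. Its probe ILMN_2732437 gave log2 levels of 5.17, 5.17, 5.33 and 6.82 in the Bgn_KO group and 5.72, 7.67, 6.57 and 7.11 in the WT group. Its probe ILMN_2732438 gave 5.42, 5.28, 5.28 and 6.43 in the Bgn_KO group and 5.45, 7.49, 6.45 and 6.66 in the WT group. On both probes the 4 highest arrays were Bgn_KO replicate 4 and WT replicates 2, 3 and 4. The first probe was detected on 1 Bgn_KO array and on 4 WT arrays, and the second on 2 Bgn_KO arrays and on 4 WT arrays, so several of the low values are at background.

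En1 and En2 encode engrailed homeobox factors, which pattern the midbrain and hindbrain and are kept on in adult midbrain dopamine neurons. The log2 levels of En1 were 4.60, 4.59, 4.97 and 6.20 in the Bgn_KO group and 4.91, 6.86, 5.95 and 6.395 in the WT group. En1 was detected only on Bgn_KO replicate 4 and WT replicates 2, 3 and 4, the 4 arrays on which Slc6a3 was high. En2 was detected on all 8 arrays, with log2 levels of 5.53, 5.55, 5.53 and 5.86 in the Bgn_KO group and 5.69, 7.06, 6.26 and 5.89 in the WT group. En2 had the same 4 highest arrays, although Bgn_KO replicate 4 and WT replicate 4 were close to the low arrays and WT replicate 2 stood well above the rest.

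**Figure D1:**
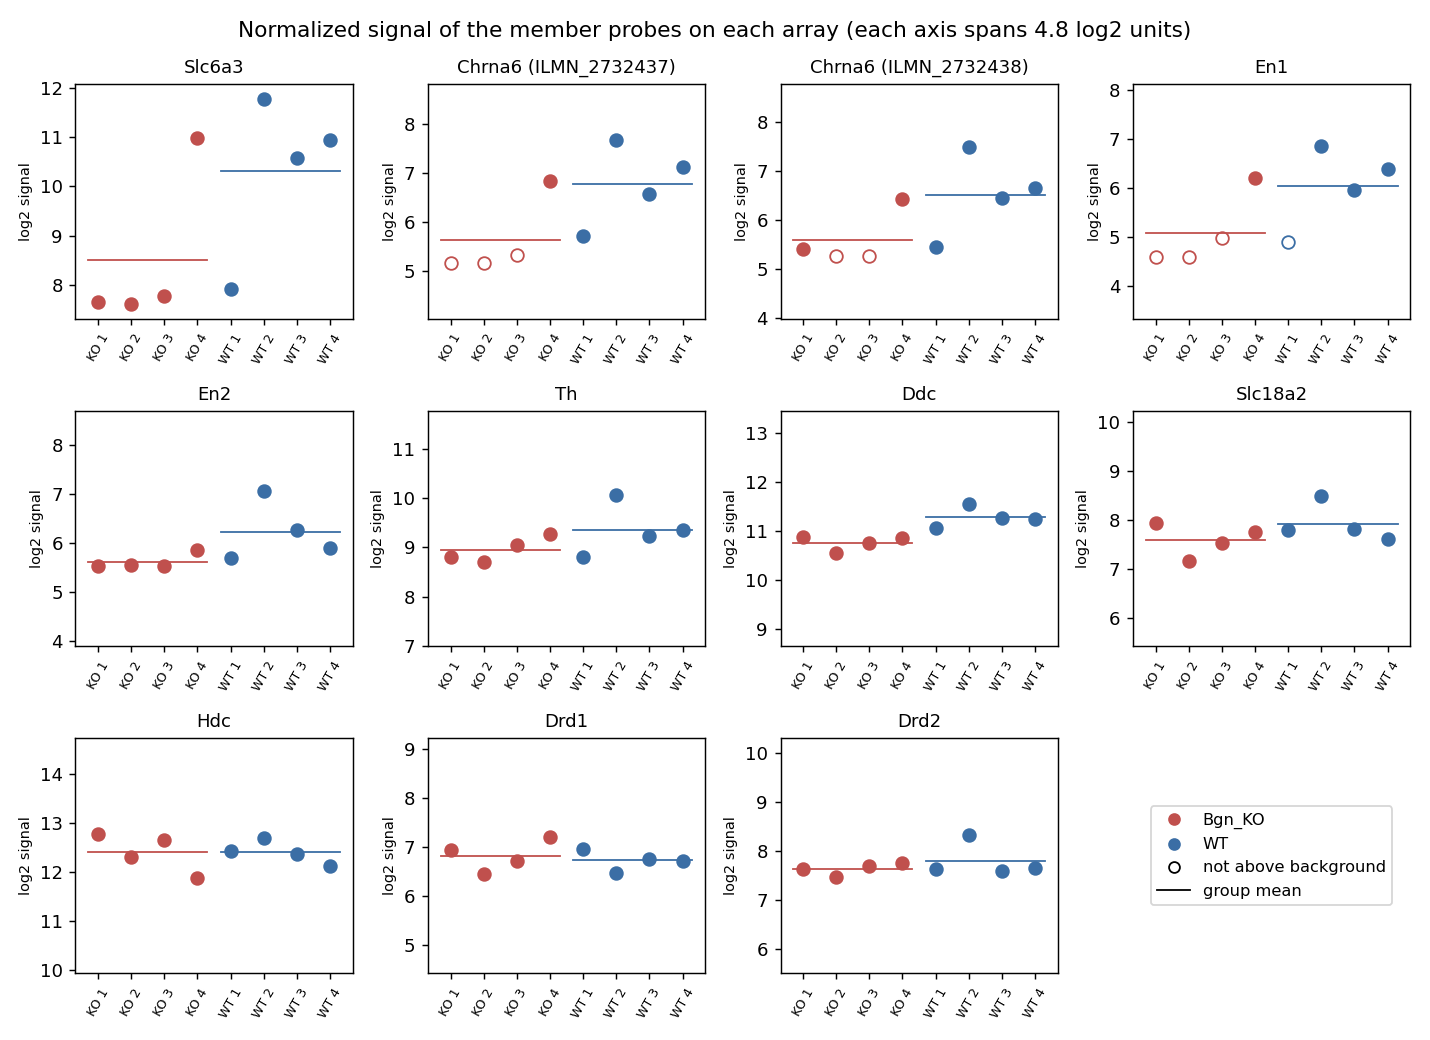
Normalized log2 signal (vertical axes, each spanning 4.8 log2 units) of the 11 member probes on the 8 arrays (horizontal axes), red for Bgn_KO and blue for WT, with open circles for arrays on which the probe was not above background and lines for the group means. Slc6a3, Chrna6 and En1 are high on KO 4, WT 2, WT 3 and WT 4 and low on the other 4 arrays, whereas Hdc and Drd1 do not follow these arrays.

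Among the enzymes, Th, the rate-limiting enzyme of dopamine synthesis, had the same 4 highest arrays as Slc6a3, in another order and with a smaller range. Its log2 levels were 8.80, 8.70, 9.04 and 9.28 in the Bgn_KO group and 8.81, 10.07, 9.24 and 9.35 in the WT group. WT replicate 2 was the highest, and the next 3 arrays, WT replicate 4, Bgn_KO replicate 4 and WT replicate 3, lay close together. The whole range of Th was 2.58-fold, and the genotypes overlapped.

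Ddc, the decarboxylase shared by dopamine and serotonin synthesis, had the 4 WT arrays as its highest, a set other than that of Slc6a3. Its log2 levels were 10.88, 10.56, 10.76 and 10.86 in the Bgn_KO group and 11.06, 11.55, 11.28 and 11.25 in the WT group. Within the WT group, replicates 2, 3 and 4, the arrays high for Slc6a3, were also above replicate 1 for Ddc. Within the Bgn_KO group, replicate 4, high for Slc6a3, was at 10.86 for Ddc, not above replicate 1 at 10.88. Every WT array, WT replicate 1 included, lay above every Bgn_KO array, and Ddc was the 1 member probe of 11 whose groups did not overlap, where 6.15% of all tested probes did not overlap in either direction and 2.95% did so with Bgn_KO lower. The means were 10.8 ± 0.15 and 11.3 ± 0.20 (SD, n = 4 each). The difference of -0.52 (SE 0.12) had an exact two-sided permutation p of 0.0286, the smallest that the 70 splits of 4 against 4 can give, and a limma adjusted p of 0.152 over all tested probes. It therefore did not pass the threshold of 0.05. With WT replicate 1 left out, Ddc differed by -0.59 (limma adjusted p = 0.116). The adjusted p lay between 0.0723 and 0.331 over the alternatives tried.

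Hdc, the histamine-forming enzyme, followed neither pattern. Its log2 levels were 12.78, 12.31, 12.66 and 11.88 in the Bgn_KO group and 12.42, 12.69, 12.36 and 12.11 in the WT group. The lowest array was Bgn_KO replicate 4, which was among the highest for Slc6a3, and the highest was Bgn_KO replicate 1, which was among the lowest for Slc6a3. The genotype means were 12.4 ± 0.40 and 12.4 ± 0.24 (SD, n = 4 each), and the interval of the difference ran from -0.44 to 0.47.

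The vesicular monoamine transporter Slc18a2, which all of these neurons use, had log2 levels of 7.95, 7.17, 7.53 and 7.76 in the Bgn_KO group and 7.80, 8.49, 7.82 and 7.61 in the WT group. WT replicate 2 was highest and Bgn_KO replicate 2 lowest. Its 4 highest arrays included Bgn_KO replicate 1 and WT replicate 1, both low for Slc6a3, and the genotypes overlapped. Its range was 2.50-fold.

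Of the dopamine receptors, Drd1, which is coupled to stimulation of adenylyl cyclase, had log2 levels of 6.94, 6.45, 6.72 and 7.19 in the Bgn_KO group and 6.97, 6.47, 6.76 and 6.71 in the WT group. Bgn_KO replicate 4 was the highest and the groups overlapped. Drd2, the inhibitory receptor that also serves as the autoreceptor of dopamine neurons, had levels of 7.62, 7.48, 7.70 and 7.76 in the Bgn_KO group and 7.63, 8.33, 7.58 and 7.65 in the WT group. Only WT replicate 2 stood apart for Drd2, above 7 arrays that lay between 7.48 and 7.76.

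The 4 highest arrays of Slc6a3 were also the 4 highest for 5 of the 10 other member probes, which belong to Th, Chrna6, En1 and En2. Of all tested probes, 2.47% had these 4 arrays highest. The same 5 probes shared them without background correction, in the authors' processed values, with median scaling and with an offset of 50. Ddc, Hdc, Slc18a2, Drd1 and Drd2 had other sets of highest arrays. WT replicate 2 was the highest array for 9 of the 11 member probes, all but those of Hdc and Drd1, against 13.2% of all tested probes.

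Between the genotypes, 9 member probes were lower and 2 were higher in Bgn_KO, and 0 of 11 passed the limma adjusted p threshold of 0.05, against 0.507% of all tested probes, 0.226% higher and 0.282% lower. At an unadjusted limma p under 0.05 there were 3 member probes, all lower in Bgn_KO, where 10.2% of all tested probes passed in either direction and 4.95% were lower. The median difference of the 11 probes was -0.52 on the log2 scale, beside 0.01 for all tested probes, of which 52.8% were higher in Bgn_KO. Of the 11 probes, 6 had the same 4 highest arrays, most of them WT. Their directions are therefore not independent of each other, nor are the counts and the median.

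The difference in level was largest for Slc6a3, at -1.81 (SE 0.95, limma adjusted p = 0.570), with a 95% interval of -3.96 to 0.34. Without Bgn_KO replicate 4 it was -2.64 (limma adjusted p = 0.266), without WT replicate 1 it was -2.61 (limma adjusted p = 0.272), and without WT replicate 2 it was -1.32. The group means were 8.50 ± 1.66 and 10.3 ± 1.67 (SD, n = 4 each), so the difference was close to the spread within a genotype. Chrna6 differed by -1.14 (SE 0.47, limma adjusted p = 0.461) and -0.91 (SE 0.41, limma adjusted p = 0.503) on its 2 probes. En1 differed by -0.94 (SE 0.46) and En2 by -0.61 (SE 0.26), with limma adjusted p of 0.540 and 0.478. For these 4 probes, as for Slc6a3, the 4 highest arrays were 1 of Bgn_KO and 3 of WT. Without WT replicate 1, the array with low Bgn, the differences were -1.49 and -1.26 for Chrna6, -1.31 for En1 and -0.79 for En2, with limma adjusted p of 0.250, 0.215, 0.265 and 0.280. Without WT replicate 2 they were smaller, at -0.84 and -0.58 for Chrna6, -0.66 for En1 and -0.33 for En2. These dim probes also depended on the scale. Without background correction the differences were -0.40 and -0.31 for Chrna6, -0.29 for En1 and -0.20 for En2, and in the authors' processed values they were -0.38, -0.30, -0.28 and -0.19.

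The remaining differences were smaller. Th differed by -0.41 (SE 0.25, limma adjusted p = 0.607), and by -0.60 without WT replicate 1 (limma adjusted p = 0.3535), but by -0.18 without WT replicate 2 (limma adjusted p = 0.768). Slc18a2 differed by -0.33 (SE 0.22, limma adjusted p = 0.647), and by -0.14 without WT replicate 2. Without background correction Slc18a2 differed by -0.20, as it did in the authors' processed values. The differences of the receptors were 0.10 for Drd1 (SE 0.17, limma adjusted p = 0.891) and -0.16 for Drd2 (SE 0.17, limma adjusted p = 0.805), and that of Hdc was 0.01 (SE 0.20, limma adjusted p = 0.990). The 95% intervals of Th, Slc18a2, Drd1, Drd2 and Hdc all included 0, and the narrowest, that of Drd2, ran from -0.53 to 0.22.

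**Figure D2:**
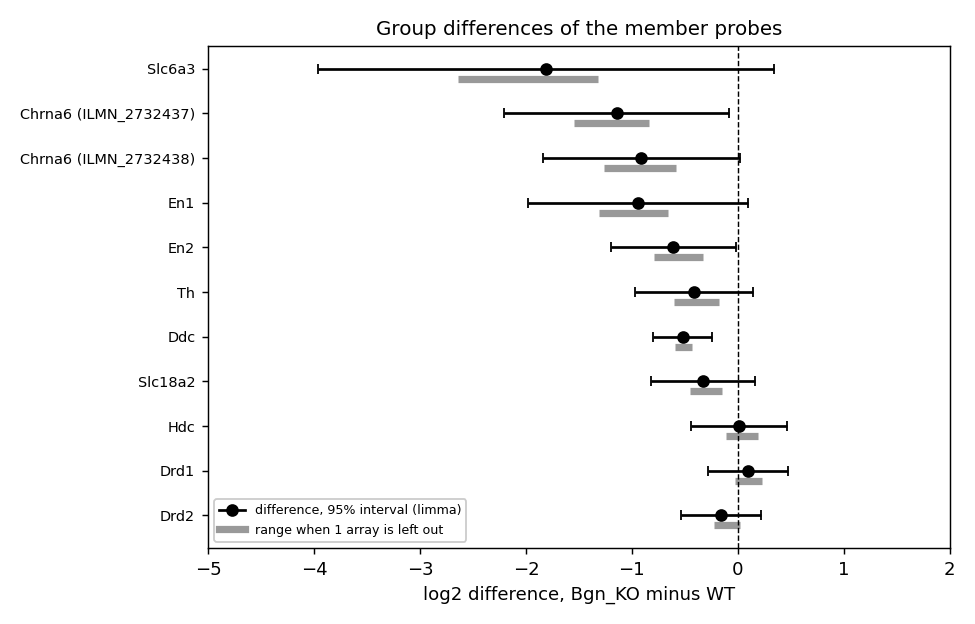
Log2 differences, Bgn_KO minus WT, of the 11 member probes (horizontal axis), as points with the 95% interval from limma, and as grey bars the range of the difference when each of the 8 arrays was left out in turn. Slc6a3 has the widest interval, from -3.96 to 0.34, and Ddc a narrow one below 0, from -0.80 to -0.24, although its adjusted p of 0.152 did not pass.

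Other genes of midbrain dopamine neurons and the ventral midbrain were read from a list of 20, of which 15 had a tested probe. Of these, 13 were lower and 2 higher in Bgn_KO, 0 passed the adjusted threshold, and the median difference was -0.22. Pitx3, Lmx1b, Foxa2, Calb1 and Chrna5 were detected on no array, among them factors that define midbrain dopamine neurons. Other transcription factors of the list were tested, with log2 levels of 6.46 to 7.15 for Lmx1a, 6.28 to 7.23 for Nr4a2 and 6.52 to 7.69 for Foxa1. Their differences were -0.36, -0.02 and 0.02, with limma adjusted p of 0.478, 0.981 and 0.982. Lmx1a, Nr4a2 and Foxa1 did not have the 4 highest arrays of Slc6a3. Aldh1a1, the retinaldehyde dehydrogenase of ventral dopamine neurons, Slc10a4, a vesicular protein of monoamine and cholinergic neurons, Gch1, which makes the cofactor of Th, and Otx2, a midbrain homeobox gene, had the same 4 highest arrays as Slc6a3. Those were 4 of the 15, again beside 2.47% of all tested probes. Otx2 was dim, with WT replicate 4 apart at 7.04, and Bgn_KO replicate 4 at 6.23 was only just above Bgn_KO replicate 3 at 6.20. The sharing was not particular to this list, since 3 of 17 striatal genes, 2 of 11 cofactor genes (Aldh1a1 and Gch1 again), 1 of 11 hypothalamic genes (Npy), 1 of 8 meningeal genes (Igfbp2) and 1 of 4 muscle genes (Tnni2) had the same 4 highest arrays. In the raphe, noradrenaline, receptor, cortical, thalamic and pituitary lists 0 genes did. Actn2, 1 of the striatal genes, and Tnni2 stood far highest on WT replicate 4, at 9.65 and 13.25, where the mean of the muscle list was also highest. For Tnni2, WT replicate 2 at 5.4279 was barely above Bgn_KO replicate 2 at 5.4267.

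Slc10a4 had log2 levels of 7.58, 7.97, 8.18 and 9.16 in the Bgn_KO group and 7.85, 9.85, 8.97 and 9.16 in the WT group. Aldh1a1 had levels of 9.20, 9.35, 9.02 and 9.52 in the Bgn_KO group and 9.38, 10.23, 9.75 and 10.27 in the WT group, a difference of -0.63 (SE 0.20, limma adjusted p = 0.310). For both, Bgn_KO replicate 4 was the highest array of its genotype and WT replicate 1 the lowest of its own. Gch1 differed by -0.50 (SE 0.18, limma adjusted p = 0.386). Dlk1, a Notch-related surface protein, differed by -0.92 (SE 0.31, limma adjusted p = 0.332), with its lowest level, 8.72, on Bgn_KO replicate 3.

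The mean of the midbrain list, taken as log2 signal minus the mean of each gene, was -0.18, -0.21, -0.26 and 0.02 on the Bgn_KO arrays and -0.22, 0.49, 0.09 and 0.27 on the WT arrays. Summed in linear signal, the list ranged from 23937 to 30906 in the Bgn_KO group and from 22484 to 44942 in the WT group. The top of that range is WT replicate 4, where Pvalb, which muscle also makes, reached 14.2. Pvalb also enters the log2 mean of the list, so part of the 0.27 on WT replicate 4 comes from it. The mean and its correlations were not computed without Pvalb.

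**Figure D3:**
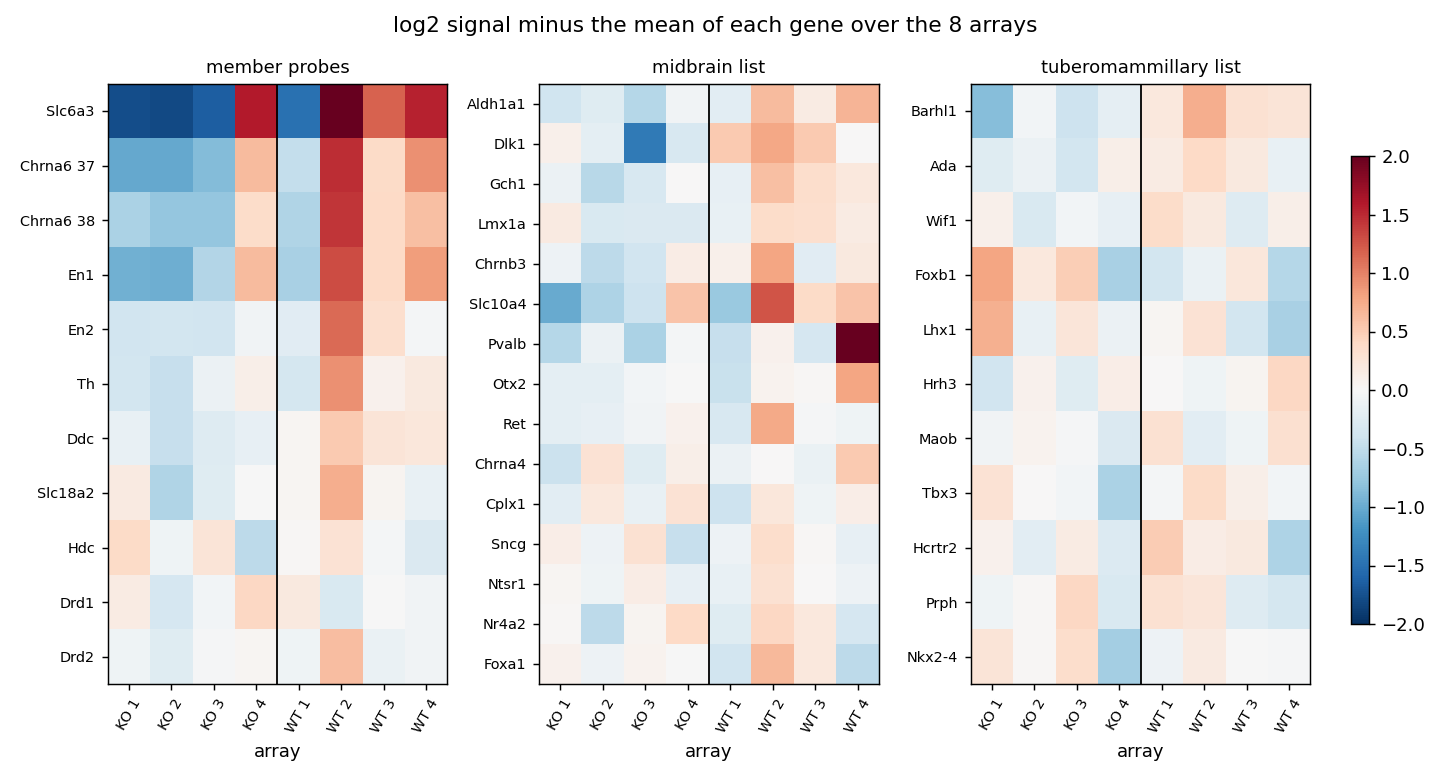
Log2 signal minus the mean of each gene over the 8 arrays (colour, ends at -2 and 2) for the 11 member probes, the 15 tested genes of the midbrain list and the 11 of the tuberomammillary list, with Bgn_KO arrays to the left and WT arrays to the right of the black line. Slc6a3, Chrna6, En1 and Slc10a4 are red on KO 4, WT 2, WT 3 and WT 4, whereas Hdc and several tuberomammillary genes are blue on KO 4.

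How the members varied together was computed for the 7 genes whose levels did not fall into separate groups of arrays. For Slc6a3, Chrna6 and En1, whose arrays split 4 and 4, no correlation was tested. In all, 42 relations over the 8 arrays were computed, among the 7 genes and between each gene and the means of the midbrain, tuberomammillary and striatal lists, and 6 of them passed a Benjamini-Hochberg threshold of 0.05 by Pearson's r in an exact permutation test. None passed by Spearman's rho, where the lowest adjusted exact permutation p was 0.152.

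Th varied with the midbrain list, with r = 0.92 (exact permutation p = 0.00179, adjusted 0.0415) and rho = 0.76 (exact permutation p = 0.0368, adjusted 0.193). Without WT replicates 2 and 4, the arrays farthest from the median, r was 0.79 over 6 arrays. En2 had r = 0.88 with the same list (exact permutation p = 0.00404, adjusted 0.0415) and rho = 0.88 (exact permutation p = 0.00724, adjusted 0.152), and r = 0.92 without those 2 arrays. Ddc had r = 0.86 with the list (exact permutation p = 0.00598, adjusted 0.0418), rho = 0.76 (exact permutation p = 0.0368, adjusted 0.193), and r = 0.63 without them. Th and En2 had r = 0.92 with each other (exact permutation p = 0.00412, adjusted 0.0415), rho = 0.76 (exact permutation p = 0.0368, adjusted 0.193), and r = 0.81 without WT replicates 2 and 3. Ddc and En2 had r = 0.86 (exact permutation p = 0.00206, adjusted 0.0415), rho = 0.83 (exact permutation p = 0.0154, adjusted 0.193), and r = 0.69 without those.

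The relations with the midbrain list were weaker without WT replicate 2, where the r of Th with the midbrain list was 0.84, that of En2 was 0.75 and that of Ddc was 0.74, none past the adjusted threshold. With values centred within each genotype, r was 0.91 for Th, 0.81 for En2 and 0.80 for Ddc, of which that of Th passed. Slc18a2 had r = 0.65 with the midbrain list (exact permutation p = 0.0824, adjusted 0.204) and rho = 0.52 (exact permutation p = 0.197, adjusted 0.590), and r = 0.41 without WT replicates 2 and 4.

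Hdc varied with the other genes listed for its own region. With the tuberomammillary list, r was 0.86 (exact permutation p = 0.00494, adjusted 0.0415) and rho 0.88 (exact permutation p = 0.00724, adjusted 0.152). Without Bgn_KO replicate 4 and WT replicate 2, r was 0.67 over 6 arrays, and without both arrays numbered 4 it was 0.50, so the relation rests in part on arrays at its ends. With the midbrain list the r of Hdc was -0.12 (exact permutation p = 0.781, adjusted 0.820) and rho was -0.14 (exact permutation p = 0.752, adjusted 0.929), with r at -0.58 without WT replicates 2 and 4. The difference between the correlations of Hdc and of Th with the midbrain list was not itself tested. The mean of the hypothalamic list was also lowest on Bgn_KO replicate 4, at -0.26, and was highest on WT replicate 3, at 0.14. Its relation with Hdc was not tested. The relation of Hdc with the tuberomammillary list therefore cannot be called particular to that region.

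**Figure D4:**
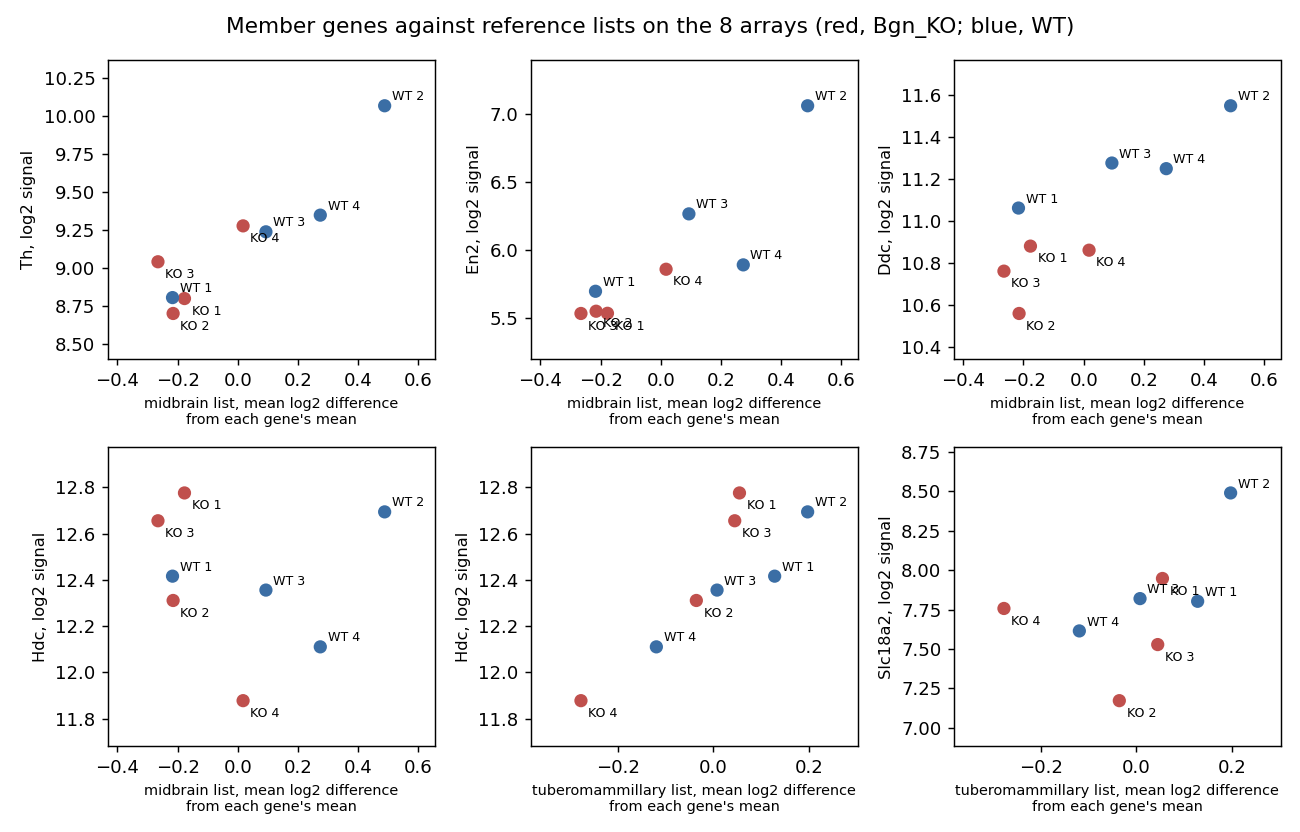
Log2 signal of Th, En2, Ddc and Hdc against the mean of the midbrain list, and of Hdc and Slc18a2 against the mean of the tuberomammillary list (horizontal axes, mean log2 difference from the mean of each gene), with 1 point per array, red for Bgn_KO and blue for WT. Th and En2 are highest on WT 2, where the midbrain list is highest at 0.49, and Hdc is lowest on KO 4, where the tuberomammillary list is lowest at -0.28.

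The tuberomammillary list had 11 tested genes of 14, with 8 lower and 3 higher in Bgn_KO, 0 past the adjusted threshold and a median difference of -0.16. None of the 11 shared the 4 highest arrays of Slc6a3. Barhl1, a homeobox gene of the mammillary region, had log2 levels of 5.02, 5.82, 5.46 and 5.70 in the Bgn_KO group and 6.08, 6.60, 6.17 and 6.14 in the WT group. Its groups did not overlap, and the difference was -0.75 (SE 0.19, limma adjusted p = 0.173). Barhl1 was the 1 gene of these 11 with fully separate groups. On the whole array 6.15% of the tested probes had such groups, and 2.95% had them with Bgn_KO as the lower group. Ada, adenosine deaminase, known in tuberomammillary neurons of the rat, differed by -0.30 (SE 0.14, limma adjusted p = 0.522), and the secreted Wnt inhibitor Wif1 by -0.21 (SE 0.15, limma adjusted p = 0.675). Lhx6 and Sim1 of this list were detected on no array.

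Genes of the arcuate and periventricular dopamine cells and of the prolactin response had 10 tested members of 17, 5 higher and 5 lower, 0 past the threshold and a median difference of 0.01. None shared the 4 highest arrays of Slc6a3, and the mean of the list stayed between -0.11 and 0.12 on the 8 arrays. Ghrh, the growth hormone releasing hormone, was the 1 gene of these 10 whose genotype groups were fully separate. Its levels were 9.78, 9.58, 9.78 and 9.24 in the Bgn_KO group and 10.05, 9.87, 10.07 and 9.88 in the WT group, without overlap, at a difference of -0.37 (SE 0.13, limma adjusted p = 0.372). Full separation was also seen for 6.15% of the tested probes of the whole array, and for 2.95% with Bgn_KO as the lower group. Cish, a prolactin-responsive suppressor of cytokine signalling, differed by -0.22 (SE 0.11, limma adjusted p = 0.562), and the vesicular GABA transporter Slc32a1 by 0.17 (SE 0.09, limma adjusted p = 0.580).

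Serotonin neurons of the raphe lie in the brainstem, and 5 of 9 listed genes were tested, 2 higher and 3 lower, 0 past the threshold, with a median of -0.15. The serotonin transporter Slc6a4 was detected on no array. Tph2, the neuronal enzyme that starts serotonin synthesis, was dim, at log2 levels of 5.26, 5.21, 5.74 and 5.85 in the Bgn_KO group and 5.68, 6.11, 5.49 and 5.76 in the WT group, with overlapping groups and a difference of -0.25 (SE 0.18, limma adjusted p = 0.690). The receptors Htr1a and Htr1b differed by 0.20 (SE 0.09) and -0.16 (SE 0.14), with limma adjusted p of 0.510 and 0.758. Of the noradrenaline and adrenaline list, Pnmt alone was tested, at 0.29 (SE 0.18, limma adjusted p = 0.622), and Dbh, which makes noradrenaline, was detected on no array.

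Of the genes for cofactor synthesis and amine degradation, 11 of 14 were tested and all 11 were lower in Bgn_KO, 0 past the threshold, with a median of -0.12. Several of these differences were far below their own error, such as Aldh3a2 at -0.02 (SE 0.09). Ddt, D-dopachrome tautomerase, differed by -0.29 (SE 0.10, limma adjusted p = 0.336), and Aldh1a1 and Gch1, which are also on the midbrain list, are given above. The mean of the list lay between -0.17 and -0.04 in the Bgn_KO group and between 0.03 and 0.18 in the WT group.

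Of the other dopamine, serotonin and histamine receptors, 7 of 21 were tested, 3 higher and 4 lower, 0 past the threshold, with a median of -0.14. Htr5b differed by -0.44 (SE 0.24, limma adjusted p = 0.573) and the histamine receptor Hrh2 by 0.32 (SE 0.22, limma adjusted p = 0.658). Drd3, Hrh4, Htr2b, Htr5a and Htr7 were detected on no array. The list of striatal projection neurons, which carry most Drd1 and Drd2 in the forebrain, had 17 tested genes of 25, 9 higher and 8 lower, 0 past the threshold, with a median of 0.04. Among its smallest p-values were those of Gpr6, at -0.25 (SE 0.12, limma adjusted p = 0.547), Syndig1l, at -0.29 (SE 0.18, limma adjusted p = 0.629), and Pde10a, at 0.18 (SE 0.11, limma adjusted p = 0.645). Ppp1r1b, the phosphatase inhibitor of these neurons, Tgm2 and Actn2 had the same 4 highest arrays as Slc6a3. Ppp1r1b was highest on Bgn_KO replicate 4 at 10.9, as was Drd1. The r of Drd1 with the striatal list was 0.41 (exact permutation p = 0.319, adjusted 0.576), rho was 0.29 (exact permutation p = 0.501, adjusted 0.897), and r was -0.02 without Bgn_KO replicates 3 and 4.

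Genes of tissue near the hypothalamus also varied between arrays, and 0 of those in the 5 lists that follow passed the limma adjusted threshold between genotypes. The mean of the cortical and hippocampal list, 7 tested genes of 12, was 1.68 on Bgn_KO replicate 4 and between -0.51 and -0.02 on the other 7 arrays. Slc17a7, a transporter of cortical neurons, reached 11.5 on Bgn_KO replicate 4. It was 8.38 on Bgn_KO replicate 2, 8.86 on WT replicate 4 and from 4.97 to 7.76 on the others. Neurod1 and Neurod6 of this list were detected on no array. The mean of the thalamic list, 8 of 10, was 0.87 on Bgn_KO replicate 2, 0.52 on Bgn_KO replicate 4, 0.11 on WT replicate 3 and 1.07 on WT replicate 4, and from -0.99 to -0.38 on the others. Bgn_KO replicate 2 was thus high for the thalamic list and lowest of all arrays for Slc6a3. The mean of the meningeal fibroblast list, 8 of 11, was highest on WT replicate 2 at 1.03, WT replicate 3 at 0.69 and Bgn_KO replicate 4 at 0.69, was 0.11 on Bgn_KO replicate 1 and -0.24 on WT replicate 4, and was from -0.999 to -0.625 on the other 3.

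The mean of the pituitary list, 2 of 8, was 2.69 on Bgn_KO replicate 1 and 2.48 on WT replicate 2, and the mean of the skeletal muscle list, 4 of 9, was 5.44 on WT replicate 4 and from -1.11 to -0.33 on the others. Summed in linear signal, the cortical list ran from 1749 to 10530 in the Bgn_KO group and from 1870 to 2280 in the WT group, and the meningeal list from 4227 to 12383 and from 5103 to 14694. The thalamic list ran from 34795 to 42973 and from 33558 to 45107, the pituitary list from 46.6 to 731.8 and from 48.3 to 708.2, and the muscle list from 565.5 to 847.0 and from 468.4 to 40834. The part of these tissues in the member values was not tested.

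The genes whose pattern over the 8 arrays was most like that of each member were found by Pearson's r, among 1 probe per gene, as a measure of likeness with no test. For Slc6a3 they were C1qb, a complement component of microglia, Ranbp2 and Cd86. For Chrna6 they were Aplp1, Lgals1 and Ranbp2, and for En1 they were Slc10a4, Ranbp2 and Aplp1. Since the arrays of these 3 members split 4 and 4, their r serves only to rank genes and is not printed, and each gene named for them had the same 4 highest arrays. C1qb stood at log2 levels of 10.13, 9.98, 9.98 and 10.53 in the Bgn_KO group and 10.08, 10.73, 10.45 and 10.46 in the WT group, with the same 4 arrays highest but a far smaller range than Slc6a3.

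For En2 the nearest genes were Tmbim1 at 0.98, Enpp6 at 0.97 and Rrbp1 at 0.95, and for Th they were Inppl1 at 0.99, Lysmd1 at 0.97 and E2f3 at 0.97. In En2, Th, Slc18a2 and Drd2 the widest gap between arrays, 0.52, 0.53, 0.41 and 0.67 of the range, set WT replicate 2 apart. The r of these members therefore leans on that 1 array. For Ddc the nearest gene was Hcrt at 0.96, the gene of the orexin peptides of the lateral hypothalamus, followed by Ltbr and Gch1, both at 0.95. Hcrt had log2 levels of 12.91, 12.77, 12.78 and 12.88 in the Bgn_KO group and 13.04, 13.45, 13.40 and 13.26 in the WT group. The genotypes did not overlap for Hcrt, whose difference was -0.45 (SE 0.11, limma adjusted p = 0.150). Over all tested probes, 6.15% did not overlap in either direction and 2.95% with Bgn_KO lower. Hcrt is named here for its likeness to Ddc, whose groups also did not overlap. Its genotype order is therefore not an observation separate from that of Ddc.

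For Hdc the nearest genes were Rassf1 at 0.98, Pltp at 0.96 and Dnaaf3 at 0.96, and for Slc18a2 they were the interferon-responsive Ifi27l2a at 0.97, Htra3 at 0.96 and Ifitm3 at 0.94. For Drd1 they were Pyroxd1 at 0.96, Fbxo34 at 0.94 and Cbfa2t3 at 0.92. For Drd2 they were Ret, the signalling receptor of the GDNF family, at 0.94, Idnk at 0.93 and Mgl2 at 0.93. Ret belongs to the midbrain list and was highest on WT replicate 2 at 9.13, as Drd2 was.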

How the data were processed

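The authors deposited bead signal intensities with detection p-values, which had not been normalized per the file headers, and processed intensities, for which the submitters' processing notes name lumi 2.10.0 and R 2.15.0. How those were normalized, and any genome build, are not given in the sources used here. Letters in the descriptions of the samples tied columns to samples. The unnormalized signal was analysed in R 4.3.3 with limma 3.58.1. A normexp model whose background came from the detection p-values (offset 16) was followed by quantile normalization and a log2 transform. The 14190 probes with detection p under 0.05 on 4 or more of 8 arrays entered a linear model of genotype with moderated variances and Benjamini-Hochberg adjustment over all of them at 0.05, which was tested on simulated data. Single probes also had an exact permutation test over 70 splits, and correlations had one over all pairings of the arrays. The platform annotation named 23978 of the 25697 probes, and 23962 were matched to current symbols by Entrez ID.

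All member probes are named. So are the genes with the 3 smallest p-values of the midbrain, tuberomammillary, arcuate, raphe, cofactor, receptor and striatal lists, the genes that share the highest arrays of Slc6a3, and the 3 genes most like each member. Some genes undetected on every array, and Aldh3a2, Slc17a7, Pvalb, Erdr1, Mrps27 and the hypothalamic peptides, were named after their values were seen. So were Nkx2-1, Lmx1a, Nr4a2 and Foxa1. The members and the lists were chosen with earlier results of these data known. Numbers 1 to 4 did not pair the samples, since the correlation of deviations between same-numbered arrays lay between -0.19 and 0.10. Alternatives changed the background correction, offset, normalization, filter, array weights, replicate block and the arrays left out.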

Additional observations from a re-analysis of the deposited data

Results flagged for a closer look

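In each genotype the highest and the lowest array of each member probe and of Bgn were set against Dixon's 95% critical value for 4 samples, and 5 of the 24 groups checked passed it, where chance passes about 1 in 20. In the Bgn_KO group, 4 of these were Bgn_KO replicate 4, whose log2 level of Slc6a3 was 10.99 with the nearest array at 7.76. On the same array the 2 Chrna6 probes stood at 6.82, with the nearest array at 5.33, and at 6.43, with the nearest at 5.42. En2 stood there at 5.86, with the nearest array at 5.55. In the WT group, Drd2 stood at 8.33 on WT replicate 2, with the nearest array at 7.65. The probes share their arrays, so these are not independent of each other.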

How the results depend on the processing

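No member probe passed the adjusted threshold under any alternative that could be fitted, and Slc6a3, Chrna6, En1, En2, Th, Ddc, Slc18a2 and Bgn stayed lower in Bgn_KO in each, by smaller amounts for the dim probes without background correction. The stricter filter removed both Chrna6 probes, En1 and En2, so it gave no value for them. The sign turned for Hdc, at -0.053 with median scaling, -0.11 without both arrays numbered 1 and from -0.11 to 0.19 with 1 array left out (-0.11 without Bgn_KO replicate 1, -0.07 without Bgn_KO replicate 3, -0.0018 without WT replicate 3, -0.08 without WT replicate 4). It turned for Drd1, at -0.025 without Bgn_KO replicate 4 and -0.030 without both arrays numbered 4 (-0.025 to 0.22 with 1 array left out), and for Drd2, at 0.020 without WT replicate 2 (-0.23 to 0.020). The r of Slc18a2 with Drd2, 0.83, became -0.43 without the 2 arrays farthest from the median. Over all probes, 72 were called, 32 higher and 40 lower. There were 47 (20 higher) with the stricter filter, 116 (54 and 62) with array weights, 26 (11 and 15) with the replicate block, 42 (15 higher) without both arrays numbered 4 and 46 (18 higher) without both numbered 1. With 1 array left out they ranged from 43 to 76, with 16 to 32 higher and 26 to 44 lower, the fewest without WT replicate 4 (43) and WT replicate 3 (44). Same-numbered arrays share only a number, and Bgn_KO replicate 4 was the only array that correlated best with its own number. The 6 correlations past the adjusted threshold fell short of it under 8 to 12 of the 14 alternatives that gave an adjusted p. The causes of these changes were not tested. Of the 11 probes, 3 were at background on some arrays, which limits the low values of Chrna6 and En1.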
